A study of Mus musculus with 32 samples.

Results

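Clec4f, Vsig4, Timd4, Cd5l, C1qa, C1qb, C1qc, Csf1r, Cd68 and Lyz2 are 10 genes used to mark Kupffer cells, the resident macrophages of the liver, and macrophages more broadly. They were picked by name: a member is any gene of this list whose name a non-control probe of the array carries. That gave 10 genes of the 23645 tested, read by 15 of the 56605 non-control probes, and all 10 passed the filter on dim probes. The measurements come from whole liver of 32 male F1 C57BL/6J mice aged 21 weeks, with 1 one-colour Agilent array per mouse and 8 mice in each of 4 groups. The groups were Western diet with E171, Western diet control, normal diet with E171 and normal diet control. E171 is food-grade titanium dioxide, a white pigment used as a food additive, and it was mixed into the pellets with a target dose of 10 mg/kg bw/d. The pups of all 4 groups came from dams that had eaten either control or E171 pellets for 40 days before they were paired, and each pup kept the treatment of its dam. The diets were split at 5 weeks of age and lasted 16 weeks. The diet called Western here, as in the labels of the groups, appears as a high fat diet in the protocol. Litters are not given, and the p-values below treat mice as independent animals.

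Kupffer cells sit in the liver sinusoids, where they clear particles, bacteria and dying cells from portal blood. They depend on the receptor encoded by Csf1r and, in mice, are known to carry Clec4f, Vsig4 and, in cells seeded before birth, Timd4. Cd68 and Lyz2 are shared with blood monocytes and with macrophages that monocytes give rise to, so the list runs from narrow to broad markers. In fatty liver disease of mice, resident Kupffer cells are known to be lost in part and to be joined by monocyte-derived macrophages.

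Each array probe is a 60-base oligonucleotide, and the sequences below show what was read for 6 members that stand for the 4 kinds of marker: Kupffer cell receptors, complement C1q chains, a lysosomal protein and lysozyme. They are printed 5′ to 3′ as the raw array data list them, put into lower case here, with positions in the mm9 build named in the headers. No annotation of that build was used here, so exon or UTR is not assigned. The Clec4f probe lies at chr6:83595281-83595339 and the Vsig4 probe at chrX:93443157-93443216, both on the minus strand. The C1qa and C1qb probes lie at chr4:136452409-136452468 and chr4:136436578-136436637 on the minus strand, 15831 bases apart with the C1qc probe between them. The Cd68 probe lies at chr11:69478314-69478373 and the Lyz2 probe at chr10:116719175-116719234, also on the minus strand. The printed Cd68 and Lyz2 probes are second probes of these genes, whose values are given beside those of the brightest probe.
Clec4f probe: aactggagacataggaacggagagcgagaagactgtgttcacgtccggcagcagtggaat
Vsig4 probe: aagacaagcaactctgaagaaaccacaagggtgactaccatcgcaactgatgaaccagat
C1qa probe: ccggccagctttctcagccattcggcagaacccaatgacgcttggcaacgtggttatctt
C1qb probe: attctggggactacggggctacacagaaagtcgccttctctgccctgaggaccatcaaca
Cd68 probe: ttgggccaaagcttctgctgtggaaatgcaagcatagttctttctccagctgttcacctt
Lyz2 probe: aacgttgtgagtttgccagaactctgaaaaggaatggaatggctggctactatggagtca

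The arrays gave 32166 to 37261 probes well above background and 0 saturated spots. The 75th percentile of signal, to which each array was scaled, ran from 211 to 340.3 intensity units in Western diet E171 mice, 229 to 342 in Western diet controls, 175 to 277 in normal diet E171 mice and 214 to 312 in normal diet controls. Signals are given below as a percentage of that percentile. Hepatocyte markers such as Alb, Apoa1 and Ttr were well above background on all 32 arrays, and so was the brightest probe of each of the 10 members. The arrays lay on 4 slides with 2 mice of every group on each. Several mice stood apart in this list. Western diet E171 replicate 2 had the highest signal of its group in 9 of the 10 members and normal diet E171 replicate 5 in all 10, while Western diet control replicate 5 had the lowest in 9 and normal diet control replicate 2 in all 10. Diet differences in controls and E171 differences on the Western diet are also given without Western diet control replicate 5, which was chosen after seeing the data. In whole liver, fewer cells of a type and less RNA per cell cannot be told apart.

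On the Western diet, 8 of the 10 genes were higher and none was lower, with and without E171 (limma, Benjamini-Hochberg adjusted p under 0.05 over 23645 genes). Cd68, a lysosomal membrane protein of macrophages, and Lyz2, the lysozyme of myeloid cells, had the highest differences. Those of the 3 C1q chains and Cd5l lay around 1 on the log2 scale, and those of Csf1r and Vsig4 below it. Clec4f, the receptor most restricted to Kupffer cells in mice, and Timd4, a receptor for dying cells, did not pass the test on either background. In the same test 22.2% of all genes were higher and 31% lower in Western diet E171 mice than in normal diet E171 mice, and 18.5% were higher and 28.8% lower in Western diet controls than in normal diet controls. The median log2 difference over the 10 genes was 1.07 in E171 mice and 0.99 in controls, where the median over all genes was -0.10 and -0.10. Without Western diet control replicate 5 the counts were again 8 and 8.

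**Figure D1:**
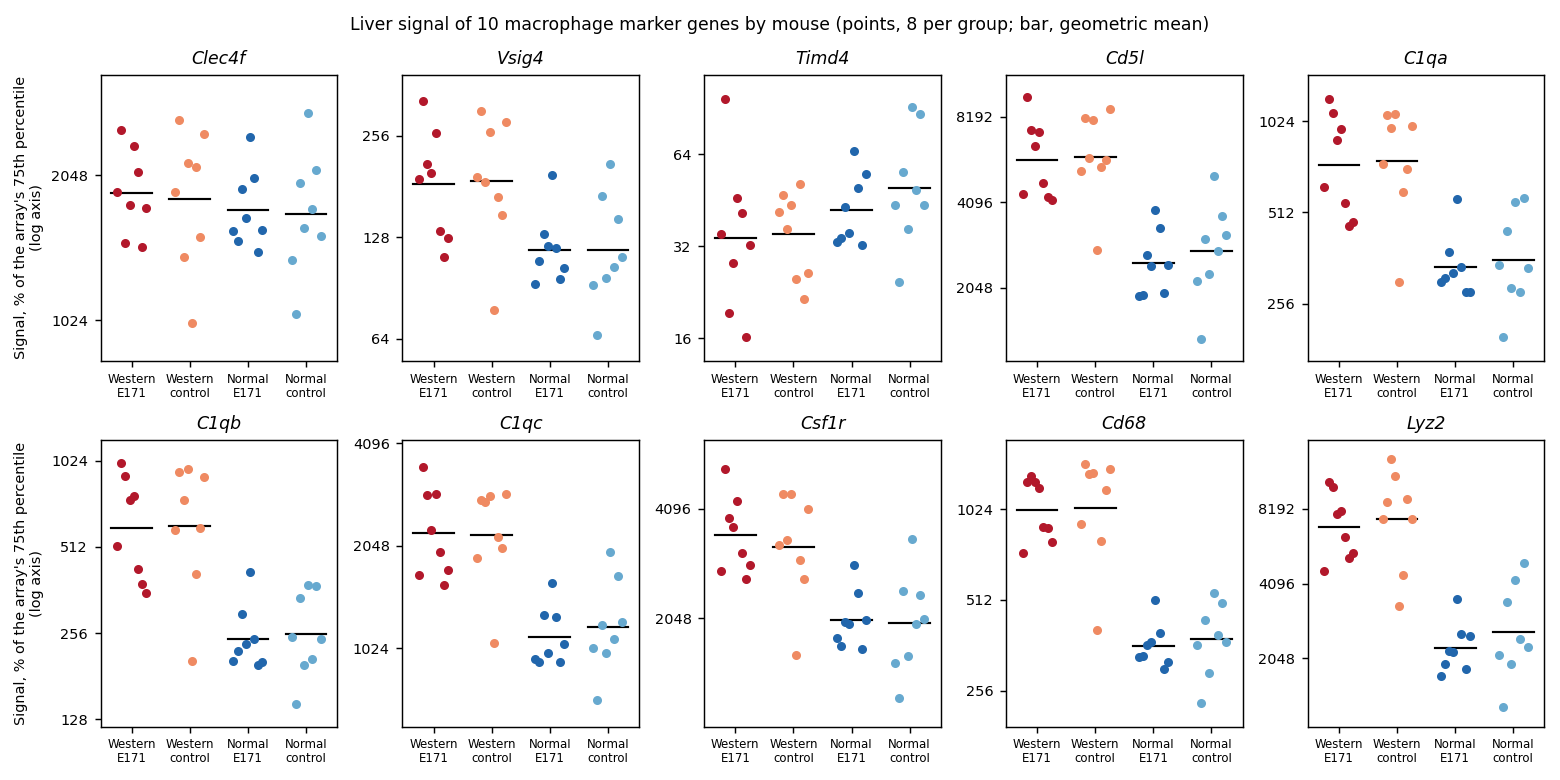
Signal of the brightest probe of each of the 10 genes, as a percentage of the 75th percentile of the array on a log axis, for the 8 mice of each group (points, Western diet E171, Western diet control, normal diet E171 and normal diet control from left to right), with the geometric mean as a bar. In Cd68 the Western diet mice other than control replicate 5 (406%) all lie above the normal diet mice, whereas the 4 groups overlap in Clec4f and Timd4.

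Among the receptors, Clec4f, a lectin that binds galactose-bearing glycans, showed little difference. Its lowest, median and highest signals were 1455, 1833 and 2541% in Western diet E171 mice and 1010.1, 2012 and 2669% in Western diet controls. They were 1418, 1623 and 2452% in normal diet E171 mice and 1057, 1665 and 2760.2% in normal diet controls. The groups overlapped over most of their range. The log2 difference by diet was 0.11 ± 0.18 (SE, n = 8 per group, limma adjusted p = 0.603) in E171 mice and 0.10 ± 0.18 (limma adjusted p = 0.658) in controls. The 95% intervals, -0.25 to 0.48 in E171 mice and -0.26 to 0.47 in controls, leave out a doubling. Leaving out each array in turn moved the difference in controls between 0.0052 and 0.23, the highest without Western diet control replicate 5, and it passed the test in none of these fits.

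Timd4 encodes Tim-4, which binds phosphatidylserine on dying cells. Its lowest, median and highest signals were 16.1, 33.7 and 97.5% in Western diet E171 mice and 21.5, 39.1 and 51.1% in Western diet controls. They were 32.2, 39.3 and 65.8% in normal diet E171 mice and 24.4, 46.3 and 91.3% in normal diet controls. The 4 groups overlapped, and Western diet E171 mice held both the lowest (replicate 7) and the highest (replicate 2) signal of all 32. The log2 difference was -0.30 ± 0.29 in E171 mice (95% interval -0.89 to 0.28, limma adjusted p = 0.373) and -0.50 ± 0.29 in controls (95% interval -1.09 to 0.077, limma adjusted p = 0.146). Timd4 was the one member with a negative difference in both.

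Vsig4 encodes the complement receptor CRIg, which takes up C3-coated particles. Its lowest, median and highest signals were 112, 195 and 324% in Western diet E171 mice and 77.7, 190.5 and 303% in Western diet controls. They were 92.7, 114 and 195% in normal diet E171 mice and 65.8, 108 and 211% in normal diet controls. The Western diet medians were the higher ones, and the groups overlapped. The log2 difference was 0.64 ± 0.25 in E171 mice (limma adjusted p = 0.0318) and 0.68 ± 0.25 in controls (limma adjusted p = 0.0259). These were the highest adjusted p-values of the 8 called members. In E171 mice the adjusted p exceeded 0.05 without Western diet replicate 2 (0.0815), 3 (0.0542) or 5 (0.0668), or without normal diet replicate 1 (0.0589), 7 (0.0557) or 8 (0.0512). In controls it did so without Western diet control replicate 2 (0.0626), 4 (0.0565) or 8 (0.059), or without normal diet control replicate 2 (0.0656). Without Western diet control replicate 5 the difference in controls was 0.87 (limma adjusted p = 0.00257).

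The secreted members were all higher on the Western diet. Cd5l, also called AIM, is a scavenger protein that macrophages release into blood. Its lowest, median and highest signals were 4159, 5602 and 9596% in Western diet E171 mice and 2776, 5798 and 8689% in Western diet controls. They were 1912, 2450.1 and 3842% in normal diet E171 mice and 1353, 2899 and 5041% in normal diet controls. All 8 Western diet E171 mice lay above all 8 normal diet E171 mice, and in controls the groups overlapped. The log2 difference was 1.21 ± 0.23 in E171 mice (limma adjusted p = 7.80e-05) and 1.11 ± 0.23 in controls (limma adjusted p = 2.80e-04).

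C1qa, C1qb and C1qc encode the 3 chains of C1q, the recognition part of the classical complement pathway, which macrophages make. C1qb had lowest, median and highest signals of 354, 633 and 1009% in Western diet E171 mice and 205, 670.4 and 955% in Western diet controls. They were 199, 228 and 419% in normal diet E171 mice and 145, 246 and 378% in normal diet controls. One Western diet control and 2 Western diet E171 mice fell inside the range of the normal diet mice with the same treatment. For C1qb the log2 difference was 1.28 ± 0.27 in E171 mice (limma adjusted p = 2.55e-04) and 1.25 ± 0.27 in controls (limma adjusted p = 4.29e-04). C1qa differed by 1.12 ± 0.25 in E171 mice and 1.08 ± 0.25 in controls, with signals of 463 to 1214% in Western diet E171 mice against 279.9 to 567.6% in normal diet E171 mice. C1qc differed by 1.01 ± 0.20 in E171 mice and 0.90 ± 0.20 in controls. A second C1qc probe was not well above background on any array and gave no value.

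Csf1r encodes the receptor for the growth factors CSF1 and IL-34, on which macrophages depend for survival. Its brightest probe had lowest, median and highest signals of 2621, 3371 and 5272% in Western diet E171 mice and 1627, 3302 and 4497% in Western diet controls. They were 1693, 1992 and 2872% in normal diet E171 mice and 1242, 2007 and 3389% in normal diet controls. The Western diet medians were higher, with overlap in both comparisons. The log2 difference was 0.77 ± 0.19 in E171 mice (limma adjusted p = 0.00132) and 0.69 ± 0.19 in controls (limma adjusted p = 0.00386). The second Csf1r probe, 12064 bases away and assigned to the same transcript, did not follow. It read 112 to 169.8% in Western diet E171 mice against 155 to 177% in normal diet E171 mice, a log2 difference of -0.17 ± 0.079 (limma adjusted p over kept probes = 0.0746). It read 116 to 161% in Western diet controls against 154 to 200.3% in normal diet controls, a log2 difference of -0.38 ± 0.079 (limma adjusted p over kept probes = 2.59e-04). The direction given for Csf1r is therefore that of its brightest probe.

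Cd68 and Lyz2, the broad markers, had the highest values of the diet difference. Cd68 had lowest, median and highest signals of 734, 1046 and 1319.5% in Western diet E171 mice and 406, 1261 and 1448% in Western diet controls. They were 301, 347 and 513% in normal diet E171 mice and 233, 382 and 538% in normal diet controls. No Western diet E171 mouse overlapped the normal diet E171 range. The log2 difference was 1.5 ± 0.20 in E171 mice (limma adjusted p = 5.36e-07) and 1.44 ± 0.20 in controls (limma adjusted p = 1.25e-06), a 2.82-fold and a 2.72-fold ratio. The other Cd68 probes gave 1.76 and 1.77 in E171 mice, and 1.64 and 1.85 in controls, so its 3 probes pointed the same way.

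Lyz2 encodes the lysozyme of macrophages, monocytes and neutrophils, an enzyme that cleaves bacterial cell walls. Its lowest, median and highest signals were 4604, 7065 and 10480.4% in Western diet E171 mice and 3324, 8109.6 and 12985% in Western diet controls. They were 1733, 2178 and 3558% in normal diet E171 mice and 1300.0, 2353 and 4960.2% in normal diet controls. Again the E171 groups were apart and the control groups overlapped. The log2 difference was 1.62 ± 0.26 in E171 mice (limma adjusted p = 5.20e-06) and 1.51 ± 0.26 in controls (limma adjusted p = 1.83e-05). The printed Lyz2 probe gave 1.53 in E171 mice and 1.75 in controls. Lyz2 has a near-identical copy, Lyz1, whose signal followed it at r = 0.985 across the 32 mice once group means were removed, so the share of each gene in either probe is uncertain.

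By complete separation of the groups, 3 members (Cd5l, Cd68 and Lyz2) had every Western diet E171 mouse above every normal diet E171 mouse, where 9.14% of all genes did so. In controls no member did, where 4.6% of all genes did so. That count rested on 1 mouse: without Western diet control replicate 5, 4 members (Cd5l, C1qa, C1qb and Cd68) were apart in controls, with 7.0% of all genes. Within slides, each with 2 mice per group, the 8 called members were higher in Western diet E171 mice than in normal diet E171 mice on all 4 slides. Clec4f and Timd4 changed sign between slides. In E171 mice Clec4f ran from -0.10 to 0.35 and Timd4 from -1.13 to 0.59, and in controls from -0.71 to 1.02 and from -1.59 to 0.10. In controls Cd5l, C1qc, Cd68 and Lyz2 were higher on all 4 slides, while Vsig4, C1qa, C1qb and Csf1r were higher on 3. On the fourth, which holds Western diet control replicate 5, their log2 differences were -0.55, -0.12, -0.028 and -0.22. Without that mouse the diet differences in controls were 0.23 for Clec4f, 0.87 for Vsig4 and -0.44 for Timd4. They were 1.26 for Cd5l, 1.27 for C1qa, 1.47 for C1qb and 1.05 for C1qc. Csf1r then gave 0.83, Cd68 1.64 and Lyz2 1.68, and the same 8 genes passed the test.

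E171 itself moved none of the 10 genes past the test. On the Western diet 0 of 10 members were called by limma (adjusted p under 0.05) between E171 mice and controls, where 0.381% of all genes were, and on the normal diet 0 of 10, where 0% were. Averaged over the diets it was 0 of 10, where 0.368% of all genes were called, and the interaction of E171 and diet called 0 of 10 members and 0% of all genes. No member reached an unadjusted p under 0.05 in any of these 4 contrasts, where 11.9% of all genes did on the Western diet, 4.05% on the normal diet, 11% averaged over diets and 5.17% for the interaction. On the Western diet Csf1r differed by 0.11 (95% interval -0.28 to 0.50), and on the normal diet Timd4 by -0.24 (95% interval -0.82 to 0.35). With all mice the Western diet values of Clec4f, C1qc and Csf1r were positive and those of the other members negative. The positive ones changed sign when Western diet control replicate 5 was left out. Without it Csf1r gave -0.034 and all 10 members were negative, down to -0.24 for C1qb and -0.26 for Lyz2, with no member called (lowest limma adjusted p = 0.678, for Cd68 at -0.21). For Cd68 the interval was -0.44 to 0.40 on the Western diet and -0.49 to 0.35 on the normal diet, and for Clec4f it was -0.32 to 0.41 and -0.34 to 0.40. Differences of E171 inside these intervals remain compatible with the data of 8 mice per group, and a limit of detection was not computed.

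**Figure D2:**
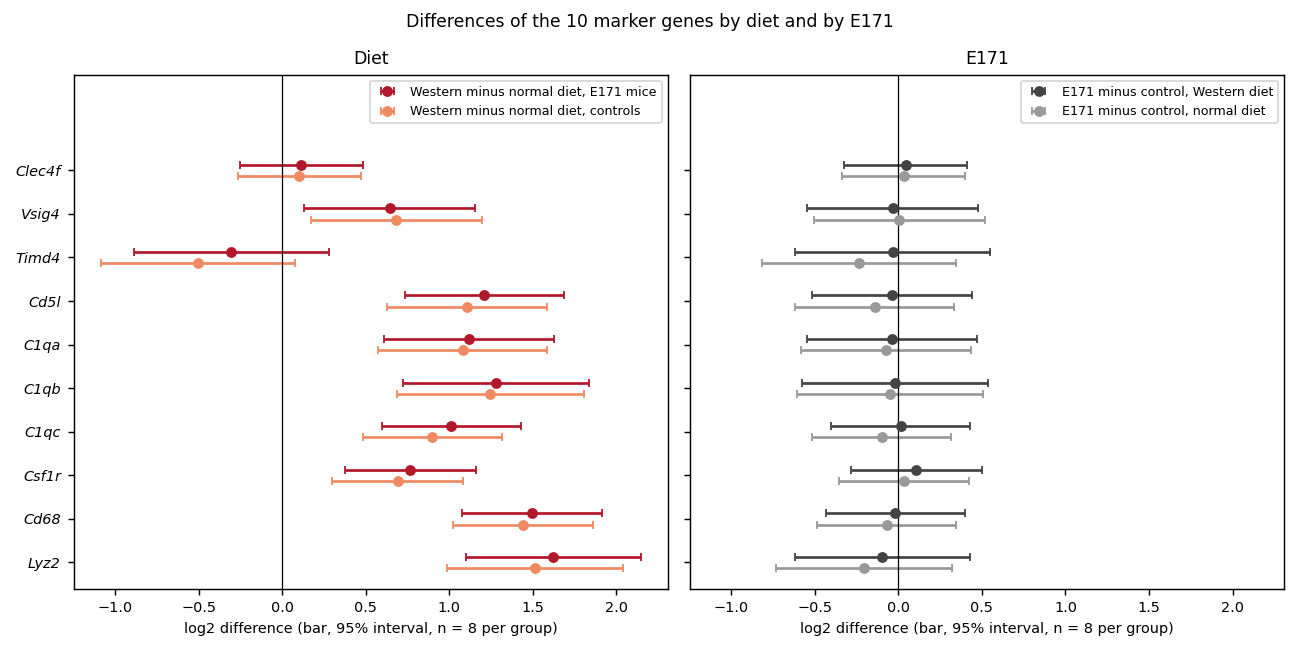
Log2 differences of the 10 genes with 95% intervals (8 mice per group), with diet on the left (Western minus normal, E171 mice above controls) and E171 on the right (E171 minus control, Western diet above normal diet). By diet, 8 genes lie above 0 with intervals that leave it out, and by E171 all intervals span 0.

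By the brightest probe of each, the members did not rise by the same amount. Within each array the log2 value of one member was set against that of another, and the change of this difference with diet was tested for all 45 pairs in each comparison (two-sided exact permutation test over 8 against 8 mice, adjusted over 90 tests). Of the 45 pairs, 38 differed in E171 mice and 36 in controls. The diet difference of Timd4 was below that of 8 of its 9 partners in E171 mice and of all 9 in controls. That of Clec4f was below 8 partners in each, and above Timd4 in controls. Between Clec4f and Cd68 the difference was -1.38 in E171 mice and -1.34 in controls on the log2 scale (exact permutation adjusted p = 3.59e-04 for each), and no mouse of one diet overlapped the other. That p comes from the smallest value 8 against 8 mice can give. Each test set a single probe per gene against another, and probes of the same gene also differed. In controls those of Cd68 gave 1.44, 1.64 and 1.85, those of Lyz2 1.51 and 1.75, and those of Csf1r 0.69 and -0.38. How much of a difference between 2 genes lies in their probes was not tested.

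Among the receptors, Vsig4 and Timd4 went apart by 0.95 in E171 mice (exact permutation adjusted p = 9.32e-04) and 1.19 in controls (exact permutation adjusted p = 3.59e-04). Between Clec4f and Timd4 the difference did not pass the test in E171 mice, at 0.42 (exact permutation adjusted p = 0.0754), and passed it in controls, at 0.61 (exact permutation adjusted p = 0.00515). The differences between Vsig4 and Csf1r, -0.12 in E171 mice and -0.010 in controls, did not pass the test. Nor did those between Cd68 and Lyz2, -0.13 in E171 mice and -0.070 in controls. Cd68 was not told apart from C1qb in either comparison (exact permutation adjusted p = 0.15 in E171 mice and 0.0589 in controls). Lyz2 was not told apart in controls from C1qb (0.121) or Cd5l (0.0644). Each C1q chain was read by a single kept probe. That of C1qb rose slightly more than that of C1qa, by 0.16 on the log2 scale in E171 mice (exact permutation adjusted p = 9.32e-04) and 0.17 in controls (exact permutation adjusted p = 0.0292). C1qb also rose more than C1qc, by 0.27 in E171 mice and 0.35 in controls (exact permutation adjusted p = 0.0333 and 0.035).

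From mouse to mouse, with diet and E171 held, the members varied together. With group means removed, all 45 pairs correlated over the 32 mice (permutation tests, adjusted over 45 pairs), with Pearson's r from 0.421 to 0.988 and Spearman's rho from 0.436 to 0.98. The largest adjusted p was 0.017 for r and 0.0138 for rho (permutation). Without the 2 mice farthest from the median of the first gene, r ran from 0.407 to 0.983. C1qa and C1qb were the closest pair, at r = 0.988, and Timd4 and Cd68 the loosest, at r = 0.421. Within slides, 33 of the 45 pairs had r above 0 on every slide, and the 12 others were pairs of Clec4f or Timd4, or C1qc with Lyz2.

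Among the 16 normal diet mice all 45 pairs passed, with r from 0.856 to 0.988. Among the 16 Western diet mice 38 passed by r and 36 by rho, and r ran from 0.172 to 0.992. The pairs that did not pass by r were Timd4 with Cd5l, C1qa, C1qb, C1qc, Cd68 or Lyz2, and Clec4f with Lyz2. The median r of Timd4 with its 9 partners was 0.42 on the Western diet and 0.903 on the normal diet, and that of Clec4f was 0.659 and 0.924. C1qb, for comparison, had 0.934 and 0.902. On the Western diet the values of Timd4 and Clec4f rested in part on few mice. Without the 2 mice farthest from the median of the first gene of a pair, which change with the pair, they were 0.113 and 0.439. Without Western diet control replicate 5 they were 0.38 and 0.453. Normal diet medians also fell without the 2 farthest mice, to 0.816 for Timd4 and 0.862 for Clec4f. The lowest r on the normal diet was then 0.745, for Cd5l with C1qa. Timd4 and Clec4f still went with each other on the Western diet, at r = 0.659, and at 0.691 without the 2 mice farthest from the Clec4f median. The difference between diets was not tested. Such correlations were not limited to the members. On the Western diet 0.0535% (Timd4) to 4.3% (C1qb) of all 16833 other named genes had r above 0.8 with a member, and on the normal diet 0.909% (C1qa) to 1.28% (Csf1r). The median r of the 12 pan-leukocyte and pan-macrophage genes with the members was 0.808 on the Western and 0.83 on the normal diet, and that of the 8 hepatocyte markers was -0.629 and 0.0488. These are descriptions over 16 mice per diet that share arrays and scaling.

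**Figure D3:**
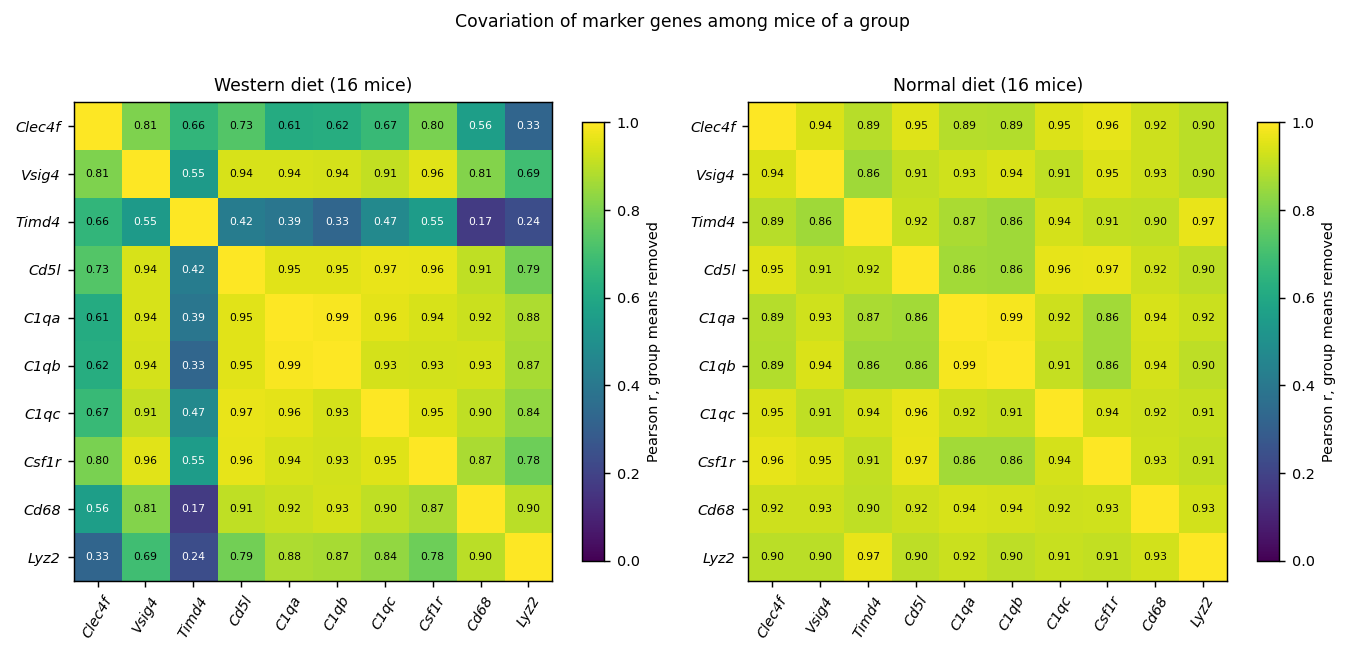
Pearson's r between the 10 genes with group means removed, for the 16 Western diet mice (left) and the 16 normal diet mice (right), on one colour scale. Timd4 and Clec4f have the low values on the Western diet, down to 0.172 for Timd4 with Cd68, where the normal diet values stay at 0.856 or above.

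**Figure D4:**
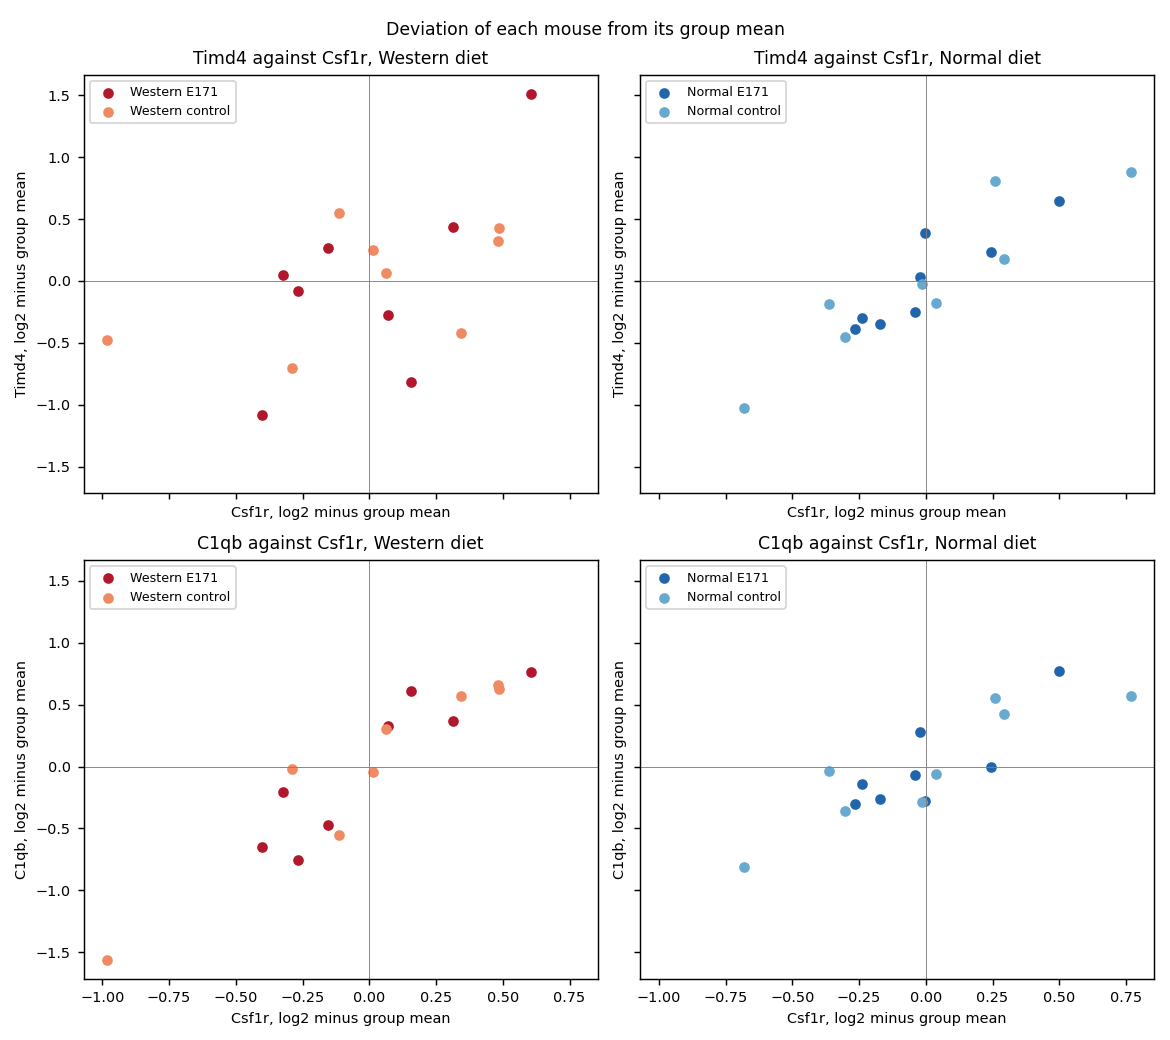
Deviation of each mouse from its group mean (log2) for Timd4 (top) and C1qb (bottom) against Csf1r, with Western diet mice on the left and normal diet mice on the right. C1qb follows Csf1r on both diets (r = 0.93 and 0.861), and Timd4 follows it at r = 0.553 on the Western and 0.909 on the normal diet.

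Across the 16834 named genes searched, likeness to a member was measured as Pearson's r over the 32 arrays with group means removed, as a description. Clec4f was closest to Folr2, a folate receptor of resident macrophages, at r = 0.914. Vsig4 and Cd5l were closest to Csf1r, at 0.95 and 0.963. C1qa and C1qb were closest to each other and then to Tyrobp, a signalling adaptor of myeloid receptors, at 0.978 and 0.979. C1qc was closest to Fcer1g, the common chain of Fc receptors, at 0.972, and Cd68 to Lgals3, a galactose-binding lectin, at 0.968. Timd4 was closest to Pira2 at 0.898 and then to Cxcl13, a chemokine that attracts B cells, at 0.879.

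Promoter sequences of 8 of the 10 members were matched by symbol in RefSeq on GRCm38.p6. Motifs of 3 factors active in macrophages were searched on both strands in the 250 bases before and 50 after each gene start. The PU.1-type motif GAGGAAG was found in C1qc and Cd5l, 2 of 8 members, and in 13.6% of all 32851 promoters. The MAF motif TGCTGAC was found in Timd4, 1 of 8, and in 4.67% of all promoters. The LXR DR4 motif was in 0 of 8 and 0.0152% of all. The 250 bases before the start are shown for the 3 genes with a match. Of the other members searched, the called genes C1qb, Cd68, Lyz2 and Vsig4 had no match, nor had Clec4f, which was not called. A link between motif and call was not tested. Capitals mark the match, which reads as the reverse complement of the motif in all 3. They span chr4:136892915-136893164 on the minus strand, chr3:87357631-87357880 on the plus strand and chr11:46810549-46810798 on the plus strand.
C1qc promoter: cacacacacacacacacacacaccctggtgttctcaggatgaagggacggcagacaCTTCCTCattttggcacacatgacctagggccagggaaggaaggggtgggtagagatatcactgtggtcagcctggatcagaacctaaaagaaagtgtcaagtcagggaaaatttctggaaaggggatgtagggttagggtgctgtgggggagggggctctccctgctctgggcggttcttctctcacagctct
Cd5l promoter: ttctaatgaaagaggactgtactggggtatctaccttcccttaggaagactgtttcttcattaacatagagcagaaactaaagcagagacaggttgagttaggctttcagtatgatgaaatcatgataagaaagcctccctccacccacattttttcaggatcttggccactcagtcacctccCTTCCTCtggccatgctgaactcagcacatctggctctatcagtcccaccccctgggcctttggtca
Timd4 promoter: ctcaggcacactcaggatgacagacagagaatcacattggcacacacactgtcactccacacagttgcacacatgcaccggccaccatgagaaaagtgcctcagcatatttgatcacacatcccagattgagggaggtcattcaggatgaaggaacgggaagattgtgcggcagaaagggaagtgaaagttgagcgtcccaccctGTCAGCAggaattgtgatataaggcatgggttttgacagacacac

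Of 17 other Kupffer cell genes measured, 7 were higher and 5 lower on the Western diet in E171 mice, and 7 and 5 in controls. The share of lower calls was close to that over all genes, 31% in E171 mice and 28.8% in controls, where 22.2% and 18.5% of all genes were higher. The summed signal of the list had a median of 10352% in Western diet E171 mice and 11021% in Western diet controls, against 12185% in normal diet E171 mice and 12156% in normal diet controls. Such a sum adds signals on the linear scale and so weighs the brightest genes most. The median log2 difference of the list was 0.29 in E171 mice and 0.19 in controls. Cd207, the lectin langerin, differed by 1.17 ± 0.31 in controls, and Clec1b, a lectin-type receptor, by 0.84 ± 0.17. Adgre1, which encodes the macrophage antigen F4/80, differed by 0.84 ± 0.27. Cd163, the haemoglobin scavenger receptor, was lower, at -1.14 ± 0.43 in E171 mice (limma adjusted p = 0.0266) and -1.76 ± 0.43 in controls (limma adjusted p = 0.00127). Folr2 and Marco did not pass the test in either.

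Of 10 genes of the growth factor axis of these cells and its transcription factors, 9 were higher and 1 lower in E171 mice, and 8 and 1 in controls. Over all genes 22.2% were higher in E171 mice and 18.5% in controls. Runx1, a transcription factor of blood cells, differed by 1.46 ± 0.21 in controls, Tyrobp by 1.43 ± 0.24 and Csf2ra, a receptor chain for GM-CSF, by 0.98 ± 0.14. Spi1, which encodes PU.1, was well above background in 7 of 8 Western diet controls and 0 of 8 normal diet controls and was at least 2.54-fold higher (limma adjusted p = 0.00233). Both ligands of the Csf1r receptor were called, Il34 at 0.76 and Csf1 at 0.48 in controls. In contrast, of 9 genes taken as partners of C1q, 7 were lower and 1 higher in each comparison. Over all genes 31% were lower in E171 mice and 28.8% in controls. Besides proteins of the classical pathway the list holds Calr, Cd93 and Lrp1, which are not part of that pathway. C1ra, a protease that C1q activates, differed by -0.86 ± 0.12 in controls and the protease C2 by -0.57 ± 0.10, while Cd93 was the one higher, at 1.11 ± 0.13. In the deposited values, 4 partners were lower in E171 mice and 3 in controls, and after quantile normalization 5 and 3.

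Genes shared with other leukocytes moved with the members. Of 12 pan-leukocyte and pan-macrophage genes 11 were higher and 1 lower in each comparison, among them Cd53 at 1.44 ± 0.23, Ctss at 1.39 ± 0.24 and Cd14 at 1.39 ± 0.27 in controls. The exception was Ptprc by its brightest probe, whose 5 probes ran from -0.48 to 1.15. Among all genes 22.2% were higher in E171 mice and 18.5% in controls. The summed signal of this list was 11029.9 to 20736% in Western diet E171 mice and 8128 to 18435% in Western diet controls, against 6078 to 9606% in normal diet E171 mice and 5319 to 11049.8% in normal diet controls.

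Of 10 markers of monocytes and recruited macrophages, 9 were higher and 1 lower in E171 mice, and 8 and 1 in controls. The share of all genes that were higher was 22.2% in E171 mice and 18.5% in controls. Cx3cr1, the fractalkine receptor, differed by 3.03 ± 0.30 in controls, Ms4a7 by 2.54 ± 0.31 and Ccr2, the receptor that draws monocytes out of bone marrow, by 2.22 ± 0.20. Chil3 differed by 2.90 ± 0.29, measured above background on 8 of 8 Western and 7 of 8 normal diet control arrays. The summed signal of the list was 5260.2 to 8554% in Western diet E171 mice and 4142 to 7829% in Western diet controls, against 3699.8 to 4324% in normal diet E171 mice and 3369 to 4267% in normal diet controls. Cx3cr1, Ms4a7 and Ccr2 were well above background on all 32 arrays, and the part of these markers in the rise of Cd68, Lyz2 and the C1q genes was not tested.

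Of 11 genes of lipid-associated macrophages, a state described in fatty tissue, 9 were higher and 1 lower in each comparison. Higher calls made up 22.2% of all genes in E171 mice and 18.5% in controls. Gpnmb, a membrane glycoprotein, was well above background in all 8 mice of both Western diet groups and in none of either normal diet group, and was at least 66.6-fold higher in Western diet E171 mice and at least 65-fold higher in Western diet controls. Trem2, a lipid receptor, differed by 3.98 ± 0.32 in controls. Mmp12, a macrophage elastase, was well above background on 8 of 8 Western and 0 of 8 normal diet E171 arrays, and was at least 34-fold higher there. In controls it was so on 8 of 8 Western and 2 of 8 normal diet arrays. Itgax, which encodes CD11c, differed by 2.80 by one probe and 0.017 by another. Fabp5, a fatty acid carrier, was the one lower, at -2.49 ± 0.30. The summed signal of the list went the other way from most of its genes, with a median of 10385% in Western diet E171 mice and 11019.8% in Western diet controls, against 12595% in normal diet E171 mice and 14617% in normal diet controls. This sum, too, weighs the brightest genes most. The median log2 difference of the list was 1.83 in E171 mice and 1.91 in controls.

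Markers of other cells moved less evenly. For comparison, 22.2% of all genes were higher and 31% lower by diet in E171 mice, and 18.5% and 28.8% in controls. Near these shares lay the endothelial counts, the higher B cell count and the lower dendritic and T and NK cell counts. In E171 mice the higher and lower counts were 4 and 2 of 7 dendritic cell markers, 4 and 2 of 8 neutrophil markers, 3 and 2 of 7 T and NK cell markers, 1 and 0 of 5 B cell markers, 2 and 3 of 8 endothelial markers, 5 and 1 of 8 stellate cell markers and 4 and 0 of 5 cholangiocyte markers. In controls, of 7 dendritic cell markers 4 were higher and 2 lower, led by Ccr7 at 1.5 ± 0.20. Of 8 neutrophil markers 3 were higher and 1 lower, and of 7 T and NK cell markers 1 was higher and 2 lower. The lower neutrophil marker was Csf3r, the receptor for G-CSF, at -0.20 ± 0.068, and it did not pass the test after quantile normalization or in the deposited values. The lower T and NK cell count was 1 under both of these. Of 5 B cell markers 1 was higher, of 8 endothelial markers 2 were higher and 2 lower, of 8 stellate cell markers 5 were higher and 1 lower, and of 5 cholangiocyte markers 3 were higher. Of 8 hepatocyte markers 7 were lower in E171 mice and all 8 in controls, such as Cps1 at -1.12 ± 0.20 and Fgb at -0.77 ± 0.092. Lower calls in controls came to 3 of these 8 after quantile normalization and to 3 in the deposited value table. No gene of any of these lists was called between E171 mice and controls on either diet.

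**Figure D5:**
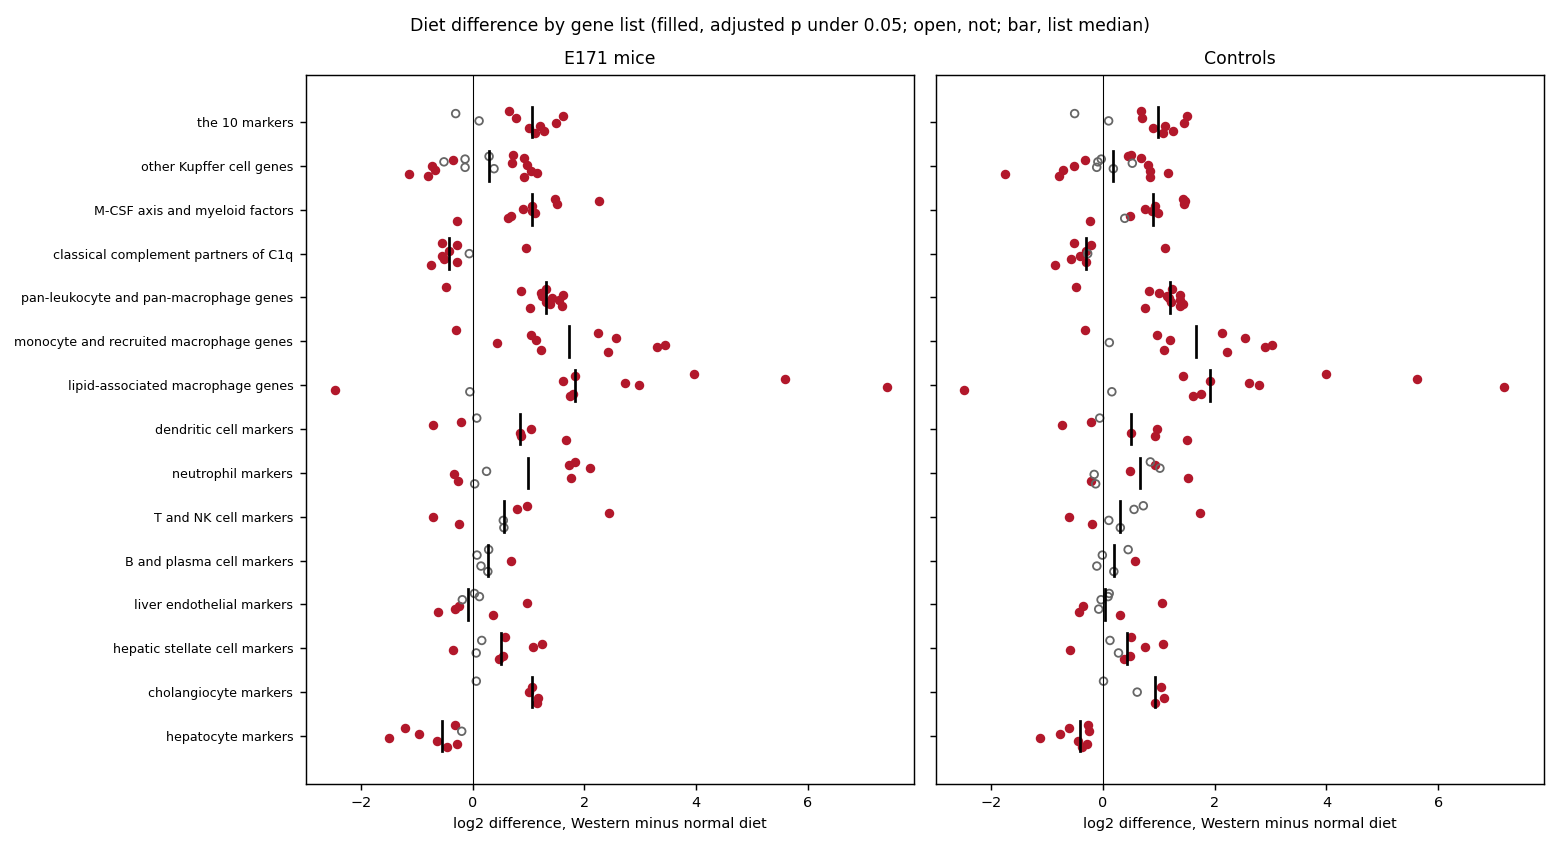
Log2 difference between Western and normal diet of each gene by list, in E171 mice (left) and controls (right), with filled points for genes called by limma, open points for the others and a bar at the list median. The 10 markers centre at 1.07 in E171 mice and 0.99 in controls, below the monocyte list (1.73 and 1.66) and above the other Kupffer cell genes (0.29 and 0.19).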

How the data were processed

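Liver RNA of 32 mice, 8 per group, was hybridised to one-colour (Cy3) arrays. Per the file headers, the deposited raw files hold a background-corrected processed intensity on the linear scale with a flag for probes well above background, and the submitters' processing notes name Agilent Feature Extraction 10.10.1.1 and limma. The authors also deposited log2 values for 36695 probes; how these were normalized is not stated in the labels. They correlated with the log2 mean signal of the same array (lowest r 0.9995), with column medians of 7.12 to 7.18, and served as an alternative.

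Here, the log2 processed signal was averaged over replicate spots after spots marked as outliers (42 to 91 per array) were dropped, and the 75th percentile of non-control probes of each array was subtracted. A probe was kept if it was well above background on at least 6 of 8 arrays of a group, which left 35778 probes. The brightest kept probe stood for each of 23645 genes. Of these 18248 had a gene name, and the others were probes without one, each counted as a gene of its own. Shares of all genes include them. Names were matched by accession, symbol or synonym to a RefSeq table on GRCm38.p6. limma 3.58.1 in R 4.3.3 fitted 1 mean per group over all 32 arrays, and p-values were adjusted over all genes by Benjamini and Hochberg with a threshold of 0.05. data.table (version 1.17.8), numpy 2.4.6, scipy 1.17.1, pandas 2.3.3 and matplotlib 3.10.9 were also used. A fold against a group in which a probe was never above background is a lower bound against the lowest signal above background there. Permutation tests over samples were exact for differences between groups and used 100000 resamples for correlations. The number of arrays limits the precision.

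From each list of other genes, up to 4 called genes with the largest absolute log2 difference in controls are named, and genes beyond them (Folr2, Marco, Csf1, Il34, Ptprc, Fabp5) were chosen after their values were seen. The members and the lists were chosen with earlier results of these data known. Alternatives were quantile normalization, normexp background correction with an offset of 50, the deposited table, no filter on dim probes, the dimmest kept probe, slide or replicate number as a block, and each array left out.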

Additional observations from a re-analysis of the deposited data

Results flagged for a closer look

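In 6 of the 40 sets of 8 mice (10 genes in 4 groups) the lowest or highest mouse lay farther from its nearest neighbour than Dixon's limit at 95% allows, where chance does so in about 5% of groups. The number beside each is the gap to the nearest mouse as a share of the range of the group. Of them, 4 were Western diet control replicate 5, the lowest of 8 in Cd5l (0.561, 2776% against 5262% for the next mouse), C1qa (0.538, 302% against 599.8%), C1qc (0.573, 1063% against 1889%) and Cd68 (0.535, 406% against 801%). The other 2 were normal diet E171 replicate 5, the highest of 8 in Vsig4 (0.539, 195% against 131%) and C1qa (0.566, 567.6% against 380.3%). That mouse was the highest of its group in all 10 genes, and normal diet control replicate 2 was the lowest of its group in all 10. Since the genes vary together, these flags are not independent of each other.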

How the results depend on the processing

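By diet 8 members were called in E171 mice and 8 in controls under quantile normalization, normexp, the deposited table and both blocks. Without the filter on dim probes it was 7 in E171 mice, where Vsig4 did not pass, and 8 in controls. With the dimmest kept probe it was 7 in E171 mice, and 7 higher and 1 lower in controls, the lower one being Csf1r. Leaving out each array in turn, which was chosen after seeing the data, gave 7 to 8 in both diet comparisons and 0 to 0 in the E171 contrasts and the interaction, and Vsig4 was the one call lost. The counts of pairs whose change differed ran from 35 to 39 under quantile normalization, normexp, the deposited table and without Western diet control replicate 5. Pairs were not counted again with the dimmest kept probe, without the filter on dim probes, with the blocks or with other arrays left out. Signs of log2 differences turned as follows. With the dimmest kept probe Csf1r gave -0.17 by diet in E171 mice, -0.38 in controls and -0.067 for E171 on the normal diet, Cd68 0.016 and Lyz2 0.012 for E171 on the normal diet, with interactions of -0.080 and -0.22, Flt3 -0.86 in E171 mice and -1.08 in controls, and Cd3e 0.0079 in E171 mice. With normexp, Clec4f gave an interaction of -0.0055, Vsig4 -0.0069 for E171 on the normal diet, Timd4 0.020 and C1qc -0.0071 for E171 on the Western diet, and Mmp8 -0.012 by diet in E171 mice. In the deposited table Vsig4 gave -0.026 for E171 on the normal diet and Csf3r 0.0041 by diet in controls, and with quantile normalization Csf3r gave 0.017. Before these changes Csf3r was at -0.20 and called, and in E171 mice Cd3e was at -0.24 and called and Mmp8 at 0.25 and not called, so the calls of Csf3r and Cd3e were lost with the sign. The cause was not tested.

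Of the genes called by diet in controls, 39.2% were higher, against 54.5% in the deposited table and 31.2% with normexp. Whether the replicate numbers pair the mice was not settled. Same-numbered mice of 2 groups had deviations correlated from -0.298 to 0.571. The median was 0.152 between diets in controls, 0.122 between diets in E171 mice, 0.15 between the Western diet groups and 0.017 between the normal diet groups. From 0 to 3 of 8 fitted best with their own number. With the replicate number as a block, 8 members were called in each diet comparison and 0 elsewhere. Calls among all genes rose to 1.9 times the 90 for E171 on the Western diet and to 1.71 times the 87 averaged over diets. Without the filter on dim probes the averaged count was 43. The interaction then called 1 gene, as it did with the replicate block, in place of 0. All 10 members were well above background on every array, so signal over background did not limit them.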
